A study of Mus musculus with 15 samples.

Results

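The comparison described here asks how the response of mouse retinal microglia to a microbead injection differed between wild-type and Apoe-/- mice. It uses all 15 libraries of the series: 4 from wild-type sham, 3 from wild-type microbead, 4 from Apoe-/- sham and 4 from Apoe-/- microbead retinas. All mice were C57BL/6 and 12 weeks old, and the labels name no further allele or agent. Each library is bulk RNA of 100 to 300 cells from 1 retina, sorted as CD11b+, Ly6c- and Fcrls+, so microglia that had lost surface Fcrls would not be in it. The labels give Apoe-/- as the genotype of the animals and name no Cre or cell type, so the loss was not limited to microglia. The quantity of interest is the Apoe-/- response (microbead minus sham, log2) minus the wild-type response, called the difference below. A negative difference means a smaller rise, or a larger fall, without Apoe. The groups were labelled in advance, so no measured value chose the libraries.

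Microbeads injected into the front of the eye block the outflow of aqueous fluid and raise the pressure in it, a model of glaucoma. Microglia, the resident macrophages of neural tissue, can leave their homeostatic state in such models and take on a neurodegenerative or disease-associated state, with more phagocytic, lysosomal, lipid-handling and antigen-presenting gene products. Apolipoprotein E is a lipid carrier and one of the transcripts that mark this state, and signalling through Trem2 and Apoe is known as a route into it.

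Apoe itself separated the genotypes in every library. Levels are given in CPM, which are read counts scaled to a common library size with TMM factors. Apoe measured 1520.3, 1406, 1469 and 1434 CPM in wild-type sham and 5639.8, 15121 and 9770.4 CPM in wild-type microbead libraries. In Apoe-/- retinas it measured 0, 4.44, 1.74 and 15.7 CPM in sham and 10.4, 8.19, 5.83 and 4.67 CPM in microbead libraries. The highest Apoe-/- library lay far below the lowest wild-type one, so the labels and this gene matched in 15 of 15 libraries. Libraries held 458303 to 714838 reads in genes, and 6521 genes passed the filter on low counts. Of the 7 microglial markers all 7 were tested, and their summed level lay between 6052 and 12726 CPM in every library. Monocyte, neutrophil, lymphocyte and astrocyte markers had 0 tested members, and neutrophil, astrocyte and lymphocyte markers summed to at most 4.76, 10.7 and 16.7 CPM in any library. Summed monocyte markers were 26.1 to 79.9 CPM in Apoe-/- sham, against 6.99 to 30.1 in wild-type sham, 14.5 to 32.0 in wild-type microbead and 10.9 to 35.2 in Apoe-/- microbead libraries, and their part in the results was not tested. A share of 40.8 to 74.4% of the reads fell in 12 gene models of the major satellite repeat. This share was lowest in wild-type microbead libraries (40.8 to 53.5%). The labels do not say that the retinas came from separate mice, so p-values measure the spread between these libraries, which may be partly technical. Wild-type libraries sat in plate row G and Apoe-/- libraries in row H, so genotype and plate row cannot be told apart in their levels, while sham and microbead libraries of a genotype shared a row.

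Across the 6521 genes the difference was called for none. At an adjusted p under 0.05 by edgeR's quasi-likelihood test 0 genes passed (0%), and the smallest unadjusted p gave an adjusted p of 0.9997. The 95% interval of the difference excluded 0 for 221 genes (3.39%), 126 of them above 0 (1.93%) and 95 below (1.46%), at an unadjusted p under 0.05. That share is below the fraction of 0.05 which this threshold passes when no gene differs. An interval that excludes 0 is therefore not by itself evidence of a difference for the genes described below. DESeq2 and limma on precision-weighted counts also called 0 genes, and limma on log2(TPM + 1) called 5, all lower: Gpx3, Spp1, Gpnmb, Lgals3 and Gm49339. The number of libraries and the depth left wide margins. The interval reached a median of 1.26 (log2) to either side of the estimate, which is 2.39-fold, and 0.88 for the 625 genes with at least 100 CPM. It lay wholly between -1 and 1 for 478 genes (7.33%), and for the others it reached past 2-fold in at least 1 direction.

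The responses of both genotypes mostly had the same sign where they were large. The mean of the 2 responses was called for 13 genes (0.199%) by edgeR's quasi-likelihood test, all of them higher after microbeads: Lyz2, Cd74, Fabp5, C4b, Gpnmb, Lgals3, Hcar2, Cd63, Cd244a, H2-K1, Apobec1, H2-D1 and H2-Ab1. In wild type alone 13 genes were called (0.199%), all higher, and in Apoe-/- alone 0 (0%), with 513 (7.87%) and 453 (6.95%) at an unadjusted p under 0.05. For 12 of the 13 mean-response genes the interval of the difference held 0, for Lgals3 it did not, and it lay within -1 to 1 for 0 of the 13. The 2 estimates share no library, so the response of one genotype can be read in genes chosen in the other. Of the 100 genes with the smallest p in wild type, 87 had the same sign in Apoe-/-, where their median response in the wild-type direction was 0.65 against 1.63 in wild type. Of the 100 genes with the smallest p in Apoe-/-, 78 had the same sign in wild type, with medians of 0.39 and 1.31. Estimates in the genotype that chose the genes are raised by that choice, so the lower value in the other genotype is no measure of a weaker response. Over genes, the correlation of the 2 responses was r = 0.31 for 6520 genes without Apoe, r = 0.44 for the 4209 with at least 20 CPM and r = 0.77 for the 624 with at least 100 CPM. Genes are not independent replicates, and microbead libraries of either genotype can share handling, so these are descriptions.

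**Figure D1:**
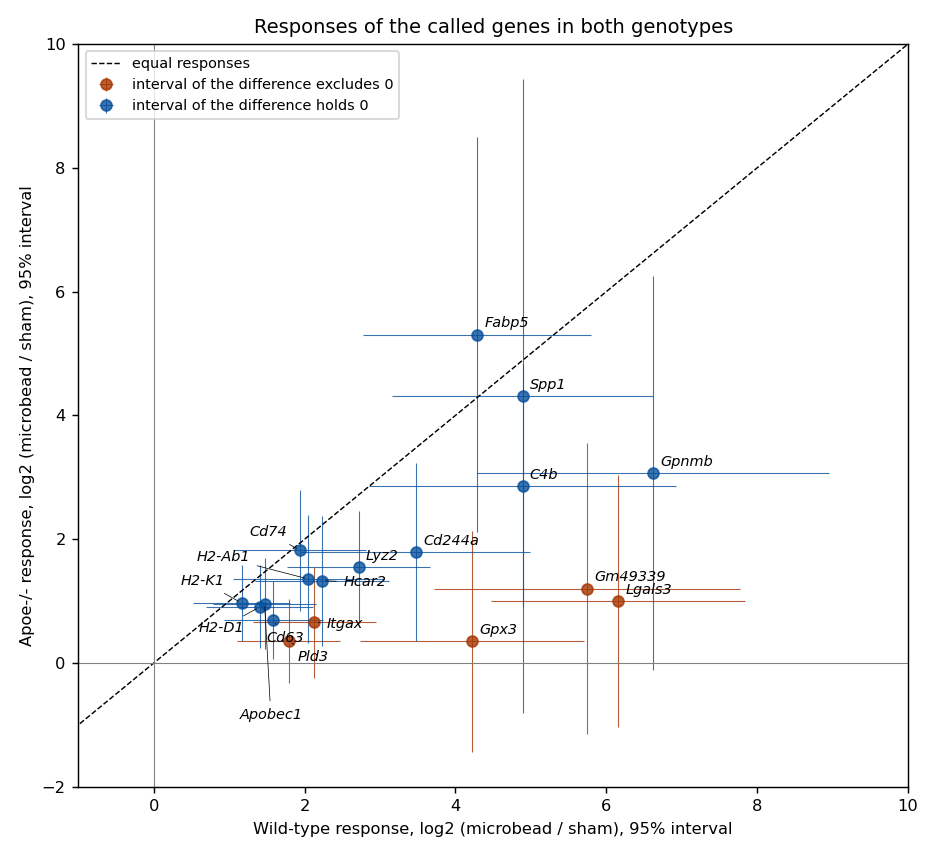
Wild-type response (x axis) against Apoe-/- response (y axis), both log2 of microbead over sham, with 95% intervals, for the genes called by the mean response or by a test of any response; Apoe is left out. All points lie above 0 on both axes; Lgals3, Gm49339, Gpx3, Itgax and Pld3, whose interval of the difference excludes 0, lie below the dashed line of equal responses, and Cd74 lies next to it.

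Among the 13 genes called by the mean response, Cd74 and H2-K1, both of antigen presentation, had the smallest differences. Class II molecules show peptides to CD4+ T cells, and Cd74, the invariant chain, holds their groove until they reach the endosome. Wild-type sham libraries held Cd74 at 112, 68.1, 71.9 and 53.8 CPM, and wild-type microbead libraries at 146, 504 and 232 CPM. Apoe-/- sham libraries held it at 38.1, 13.3, 6.96 and 41.7 CPM and Apoe-/- microbead libraries at 104, 81.9, 75.8 and 93.3 CPM. In each genotype all microbead libraries were above all sham libraries, but all 4 Apoe-/- sham libraries were below all wild-type sham libraries, and the 4 Apoe-/- microbead libraries were within the wild-type sham range. Such a gap without overlap was found for 412 genes in wild type (6.32%), 101 in Apoe-/- (1.55%) and 16 in both (0.245%). The response was 1.94 in wild type and 1.82 in Apoe-/-, with a difference of -0.12 (95% interval -1.51 to 1.28). The responses thus started from unequal sham levels. In bulk RNA, more cells with a transcript and more transcript per cell cannot be told apart. H2-Ab1 encodes the beta chain of the I-A molecule. The level of H2-Ab1 was 150.4, 112, 104 and 98.9 CPM in wild-type sham libraries and 249, 815 and 383 CPM in wild-type microbead libraries. It was 52.3, 4.44, 26.1 and 88.7 CPM in the Apoe-/- sham and 159.5, 81.9, 70.0 and 142 CPM in the Apoe-/- microbead libraries. Its 4 Apoe-/- sham libraries also lay below the wild-type sham range, but 2 of the 4 Apoe-/- microbead libraries overlapped with Apoe-/- sham and were below that range too. Its responses were 2.05 and 1.36 and the difference -0.69 (95% interval -2.13 to 0.74). H2-Aa, the alpha chain of I-A, had a difference of -0.69 (95% interval -2.41 to 1.02). Over the 6 tested of 7 class II genes the median response was 1.99 in wild type and 1.43 in Apoe-/-. Of these, 5 were positive in both, against 30.0% of all genes tested, and 6 of 6 differences were negative, against 49.6%. Leaving out wild-type microbead library 2, the highest wild-type one for these genes, turned the difference of Cd74 to 0.53, and leaving out Apoe-/- sham library 4 turned that of H2-Aa to 0.50. With the satellite share as a covariate Cd74, H2-Ab1 and H2-Aa had differences of 0.75, 0.47 and 0.17.

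Class I heavy chains show peptides to CD8+ T cells. For H2-K1, wild-type values were 319, 295, 366 and 243 CPM after sham and 469, 931 and 659 CPM after microbeads. The Apoe-/- values were 243, 142, 329 and 193 CPM after sham and 321, 541, 432 and 496 CPM after microbeads. Of the 4 Apoe-/- microbead libraries 3 were above every sham library of either genotype. The response of H2-K1 was 1.17 in wild type and 0.97 in Apoe-/-, with a difference of -0.20 (95% interval -1.08 to 0.69). In wild type, H2-D1 stood at 518, 480.5, 520.4 and 301 CPM in sham and at 915, 1589 and 1111 CPM in microbead retinas. Without Apoe, H2-D1 stood at 469, 253, 511 and 339 CPM in sham and at 459.9, 1164, 793 and 544 CPM in microbead retinas. Its 3 wild-type microbead libraries were all above its sham libraries, while in Apoe-/- 1 of the 4 overlapped with sham. The response of H2-D1 was 1.404 and 0.90, with a difference of -0.50 (95% interval -1.47 to 0.47). Reads of these near-identical heavy chain genes can be split between them by the authors' quantification, so their separate values are uncertain. B2m, the light chain they share, had responses of 0.60 and 0.58. Of the 11 class I genes tested, 10 were positive in both genotypes (30.0% of all genes tested were), with median responses of 0.41 and 0.24, and 10 of the 11 differences were negative (49.6% of all genes). The interval excluded 0 for 1 of the 11, H2-Q7, a nonclassical heavy chain, with responses of 1.32 and 0.32 and a difference of -0.999 (95% interval -1.81 to -0.18). Its interval held 0 without Apoe-/- sham library 1, without wild-type microbead library 2, with no filter and with the rod level as a covariate.

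Both H2-K1 and H2-D1 rose in the mean response and had a difference interval within 1.5 of 0, so their promoters are printed beside those of Lgals3 and Gpnmb, which had the largest negative differences among the 13 called genes. Each line gives the 250 bases before the annotated start, 5′ to 3′ on the gene's strand, from RefSeq on GRCm38.p6. H2-K1 lies at chr17:34000348-34000597 (minus strand), H2-D1 at chr17:35262844-35263093 (plus), Lgals3 at chr14:47373610-47373859 (plus) and Gpnmb at chr6:49036268-49036517 (plus). The GENCODE models used for counting begin further upstream for H2-D1 (35262730) and Lgals3 (47367751). The windows of H2-D1 and Lgals3 therefore lie inside the counted genes and not before their first base. Capitals mark CCAAT, the letters of a common promoter element, and the same element read on the other strand.
H2-K1: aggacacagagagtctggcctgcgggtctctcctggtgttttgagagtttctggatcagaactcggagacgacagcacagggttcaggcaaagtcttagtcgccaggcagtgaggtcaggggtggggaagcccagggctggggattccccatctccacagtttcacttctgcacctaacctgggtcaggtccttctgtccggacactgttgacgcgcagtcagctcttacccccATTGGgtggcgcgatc
H2-D1: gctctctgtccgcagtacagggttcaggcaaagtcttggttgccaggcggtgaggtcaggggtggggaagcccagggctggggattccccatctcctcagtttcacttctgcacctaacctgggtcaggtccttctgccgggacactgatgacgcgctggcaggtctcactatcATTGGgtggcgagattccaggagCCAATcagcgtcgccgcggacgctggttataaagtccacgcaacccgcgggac
Lgals3: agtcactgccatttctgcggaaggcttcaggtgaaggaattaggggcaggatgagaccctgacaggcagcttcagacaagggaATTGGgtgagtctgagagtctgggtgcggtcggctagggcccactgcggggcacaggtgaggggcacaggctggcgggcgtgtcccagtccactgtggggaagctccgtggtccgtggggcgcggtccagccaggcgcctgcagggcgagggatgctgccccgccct
Gpnmb: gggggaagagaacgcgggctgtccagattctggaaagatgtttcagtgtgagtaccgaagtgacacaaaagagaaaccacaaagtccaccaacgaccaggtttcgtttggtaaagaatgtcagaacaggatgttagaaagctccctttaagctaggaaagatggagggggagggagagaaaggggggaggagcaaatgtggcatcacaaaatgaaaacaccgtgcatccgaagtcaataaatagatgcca

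CCAAT on either strand matched 1 time in H2-K1, 2 times in H2-D1, 1 time in Lgals3 and 0 times in Gpnmb, and 33.8% of the 32851 mouse windows of this length held it. The H2-K1 and H2-D1 windows shared an identical run of 47 bases, which began 141 bases before the start of H2-K1, while the longest run that either shared with Lgals3 or Gpnmb was 10 bases. The other motifs searched on both strands were the E-box letters CACGTG, the AP-1 site as TGACTCA or its reverse, the PU.1 site as AGAGGAAGT, 1 spelling of an NF-kB decamer and an LXR direct repeat. These spellings matched in 0 of the 4 windows and stood in 6.02%, 4.46%, 0.798%, 0.14% and 0.0152% of all windows. Other spellings of these elements were not searched, so no match says only that these letters are not in the windows. H2-K1 had 2 annotated starts, of which 1 is shown, and 8 of the 13 genes called had a window.

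Lyz2, Cd63, Hcar2 and Apobec1 had positive responses in both genotypes and larger ones in wild type. Lyz2 encodes lysozyme M, an enzyme that cuts bacterial cell walls and is abundant in phagocytes. Lyz2 measured 249, 156, 261 and 172 CPM in wild-type sham and 933, 2332 and 874 CPM in wild-type microbead libraries. In Apoe-/- retinas it measured 124, 115, 188 and 175 CPM in sham and 232, 937, 393 and 222 CPM in microbead libraries. All microbead libraries were above all sham libraries in each genotype, and Apoe-/- microbead library 2 alone reached the wild-type microbead range. The response was 2.72 (95% interval 1.76 to 3.67) in wild type and 1.55 (0.65 to 2.45) in Apoe-/-, and the difference was -1.16 (95% interval -2.45 to 0.12). Lyz2 shares sequence with Lyz1, which makes its counts uncertain to that extent. Cd63 encodes a tetraspanin of late endosomes and lysosomes. Wild-type sham libraries held Cd63 at 141, 71.6, 110.3 and 101 CPM, and wild-type microbead libraries at 249, 379 and 329 CPM. Apoe-/- sham libraries held it at 97.5, 115, 124 and 86.1 CPM and Apoe-/- microbead libraries at 99.4, 268, 177 and 142 CPM. Its responses were 1.59 and 0.69 and the difference -0.90 (95% interval -1.80 to 0.01), an interval that ended just above 0. Hcar2, a receptor for butyrate and hydroxybutyrate, responded by 2.23 and 1.33, with a difference of -0.90 (95% interval -2.33 to 0.53). Apobec1, an enzyme that edits C to U in messenger RNA, responded by 1.47 and 0.96, with a difference of -0.51 (95% interval -1.53 to 0.51).

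Lgals3 had the largest gap between the genotypes among the genes called. It encodes galectin-3, a lectin that binds damaged endosomal membranes and marks activated microglia, and lies on chromosome 14 from 47367751 to 47386160 (plus strand, mm10). The level of Lgals3 was 1.52, 0, 1.20 and 4.30 CPM in wild-type sham libraries and 49.2, 269 and 65.4 CPM in wild-type microbead libraries. It was 7.14, 0, 3.48 and 5.22 CPM in the Apoe-/- sham and 12.4, 19.1, 7.78 and 0 CPM in the Apoe-/- microbead libraries. Every wild-type microbead library was above every other library, and 3 of the 4 Apoe-/- microbead libraries were above all sham libraries. In those 3 the order rests on 6, 7 and 4 reads, against at most 3 in any sham library, and is uncertain. The wild-type response was 6.16 (95% interval 4.47 to 7.84, adjusted p = 0.00186 by edgeR's quasi-likelihood test) and the Apoe-/- response 1.00 (-1.04 to 3.04). The difference was -5.15 (95% interval -8.31 to -1.9995), and its interval excluded 0 without any 1 of the 15 libraries and under each of the 10 alternatives that gave one. These refits reuse the same libraries, and Lgals3 had among the smallest p for the difference, so they are no independent support. Lgals3 held 34, 269 and 49 reads in wild-type microbead libraries and at most 7 in any other. It thus passed the filter on low counts only through the group where it was high. The stricter filter, at least 10 reads in 7 libraries, dropped it. After adjustment over all genes the difference did not pass, with an adjusted p of 0.9997 by the same test. Over the alternatives this adjusted p ran from 0.00107, in edgeR with no filter on low counts, to 1, and limma on log2(TPM + 1) gave 0.029. The upper end of the Apoe-/- interval leaves room for a rise of 3.04, so the data do not show that the response was absent.

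**Figure D2:**
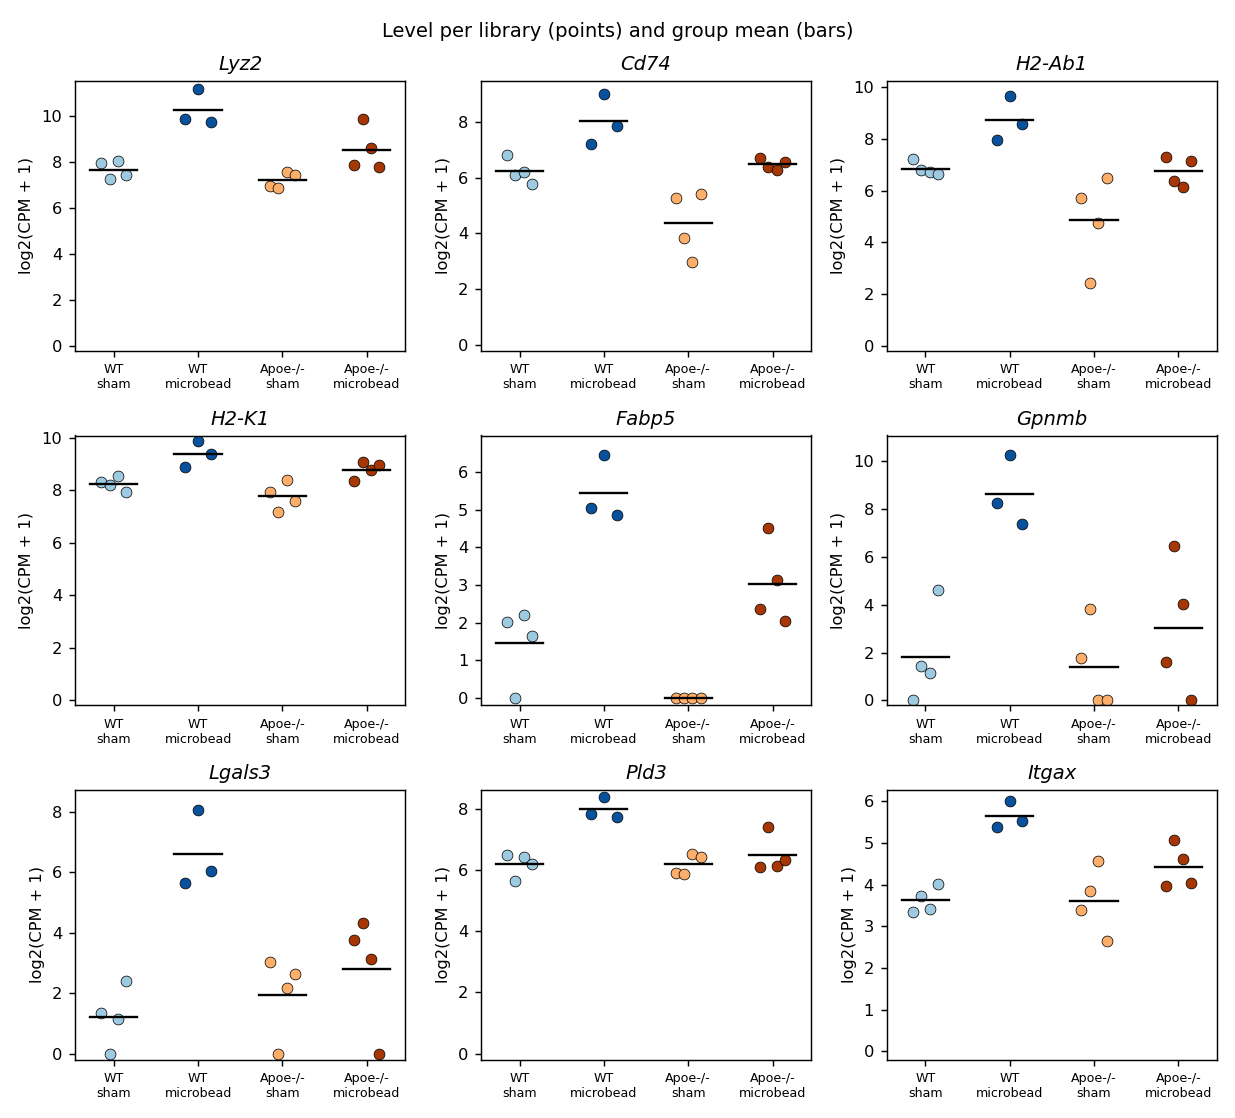
Level of 9 genes in each of the 15 libraries as log2(CPM + 1), with a bar at the mean of each group. For Cd74 and H2-Ab1 the Apoe-/- sham points lie below the wild-type sham points, for Lgals3 and Pld3 the 3 wild-type microbead points lie above all others, and for Fabp5 all 4 Apoe-/- sham libraries are at 0.

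Pld3, Itgax, Gpx3 and Cst7 also had wild-type responses whose difference from Apoe-/- excluded 0 before adjustment. They are grouped by that interval, and the size of differences chosen so is raised by the choice. Refits without single libraries or with other settings reuse the same data and are no independent support. Pld3, a lysosomal exonuclease, was the most precisely measured of these genes. For Pld3, wild-type values were 89.6, 48.9, 86.3 and 73.1 CPM after sham and 226, 338 and 212 CPM after microbeads. The Apoe-/- values were 59.5, 57.7, 92.2 and 86.1 CPM after sham and 68.4, 169, 70.0 and 79.3 CPM after microbeads. In wild type the microbead and sham libraries did not overlap, and in Apoe-/- only microbead library 2 was above all sham libraries. The response was 1.79 (adjusted p = 0.0179, edgeR's quasi-likelihood test) in wild type and 0.35 (-0.32 to 1.03) in Apoe-/-, and the difference was -1.44 (95% interval -2.40 to -0.48). Its interval excluded 0 without any 1 library, and held 0 with the rod level as a covariate.

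Itgax encodes the CD11c integrin, a marker of disease-associated microglia. In wild type, Itgax stood at 9.11, 12.2, 9.59 and 15.1 CPM in sham and at 40.6, 63.0 and 45.4 CPM in microbead retinas. Without Apoe, Itgax stood at 9.52, 13.3, 22.6 and 5.22 CPM in sham and at 14.5, 32.8, 23.3 and 15.6 CPM in microbead retinas. Its responses were 2.13 (adjusted p = 0.0179, the same test) and 0.66, with a difference of -1.47 (95% interval -2.71 to -0.24), an interval that held 0 without Apoe-/- sham library 3 (-0.90), without wild-type microbead library 2 (-1.25) or with the rod level as a covariate (-1.04). Gpx3, a secreted glutathione peroxidase that removes peroxides, was low outside the wild-type microbead group. Gpx3 measured 1.52, 1.75, 1.20 and 2.15 CPM in wild-type sham and 53.6, 29.0 and 18.7 CPM in wild-type microbead libraries. In Apoe-/- retinas it measured 2.38, 4.44, 1.74 and 5.22 CPM in sham and 6.21, 5.46, 5.83 and 0 CPM in microbead libraries. Its difference of -3.87 (95% interval -6.40 to -1.35) excluded 0 without any 1 library and in all 10 alternatives that gave one, from few reads. The wild-type microbead libraries held 37, 29 and 14 Gpx3 reads and every other library at most 3. Gpx3 thus passed the filter on low counts only through the group where it was high. The stricter filter, at least 10 reads in 7 libraries, dropped it. Cst7 encodes cystatin F, an inhibitor of lysosomal cathepsins. Wild-type sham libraries held Cst7 at 3.04, 0, 7.19 and 0 CPM, and wild-type microbead libraries at 86.9, 44.0 and 44.0 CPM. Apoe-/- sham libraries held it at 11.9, 22.2, 10.4 and 7.83 CPM and Apoe-/- microbead libraries at 10.4, 98.3, 7.78 and 3.11 CPM. Apoe-/- microbead library 2 was above every wild-type microbead library and the other 3 were not above the highest sham library. The difference of Cst7 was -3.02 (95% interval -5.71 to -0.32). It was -4.98 without Apoe-/- microbead library 2, and its interval held 0 in 5 of the 15 fits that left out 1 library. A predicted gene, Gm49339, had a difference of -4.55 (95% interval -8.35 to -0.74), from reads that were 0 in 6 of the 8 sham libraries. It was -0.86 without Apoe-/- sham library 4, where the interval held 0, and -6.77 without wild-type sham library 2. Cst7 and Gm49339 also passed the filter on low counts only through the wild-type microbead group.

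Gpnmb, Spp1, Fabp5, C4b and Cd244a belong to the same set of response genes, and their differences were not resolved. Gpnmb encodes a glycoprotein of phagosomes and lysosomes, on chromosome 6 from 49036546 to 49070929 (plus strand, mm10). The level of Gpnmb was 0, 1.75, 1.20 and 23.7 CPM in wild-type sham libraries and 303, 1218 and 167 CPM in wild-type microbead libraries. It was 2.38, 13.3, 0 and 0 CPM in the Apoe-/- sham and 2.07, 87.4, 15.6 and 0 CPM in the Apoe-/- microbead libraries. The 3 wild-type microbead libraries were above all others, the next being Apoe-/- microbead library 2. Its responses were 6.62 and 3.07, and the difference of -3.55 (95% interval -8.96 to 1.86) had the widest interval of the 13 genes. Spp1 encodes osteopontin, a secreted ligand of integrins. For Spp1, wild-type values were 0, 13.98, 0 and 8.602 CPM after sham and 159, 249 and 52.0 CPM after microbeads. The Apoe-/- values were 0, 0, 0 and 0 CPM after sham and 0, 13.7, 5.83 and 0 CPM after microbeads. Over the 4 Apoe-/- sham libraries it had 0 reads and over the 4 microbead libraries 8, at least 2.13-fold higher if 3 reads over the group are taken as the floor. Fabp5, a fatty acid carrier, had 0 and 16 reads in these groups, at least 4.26-fold higher. In wild type, Fabp5 stood at 3.04, 0, 3.597 and 2.15 CPM in sham and at 31.9, 87.0 and 28.01 CPM in microbead retinas. Without Apoe, Fabp5 stood at 0, 0, 0 and 0 CPM in sham and at 4.14, 21.9, 7.78 and 3.11 CPM in microbead retinas. All microbead libraries were above all sham libraries in each genotype. In Apoe-/- this order is uncertain, because the microbead libraries held only 2, 8, 4 and 2 Fabp5 reads. With 3 reads as the limit, Fabp5 at 0 reads in Apoe-/- sham library 2 could be at up to 13.3 CPM. Its fitted difference of 1.02 (95% interval -1.30 to 3.34) is set against an Apoe-/- sham group with 0 reads and turned to -0.25 in DESeq2 and to -1.39 and -2.66 in the weighted and TPM fits of limma. C4b encodes complement component C4, and its reads cannot be fully told from those of the near-identical C4a. C4b measured 16.7, 1.75, 1.20 and 4.30 CPM in wild-type sham and 85.5, 146 and 319 CPM in wild-type microbead libraries. In Apoe-/- retinas it measured 9.52, 13.3, 8.70 and 20.9 CPM in sham and 8.29, 175, 196 and 3.11 CPM in microbead libraries. In Apoe-/- microbead retinas 2 libraries were within the wild-type microbead range and 2 within the wild-type sham range. Its difference was -2.03 (95% interval -5.04 to 0.98), and that of Cd244a, an immune receptor of the SLAM family, was -1.68 (95% interval -3.87 to 0.52).

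**Figure D3:**
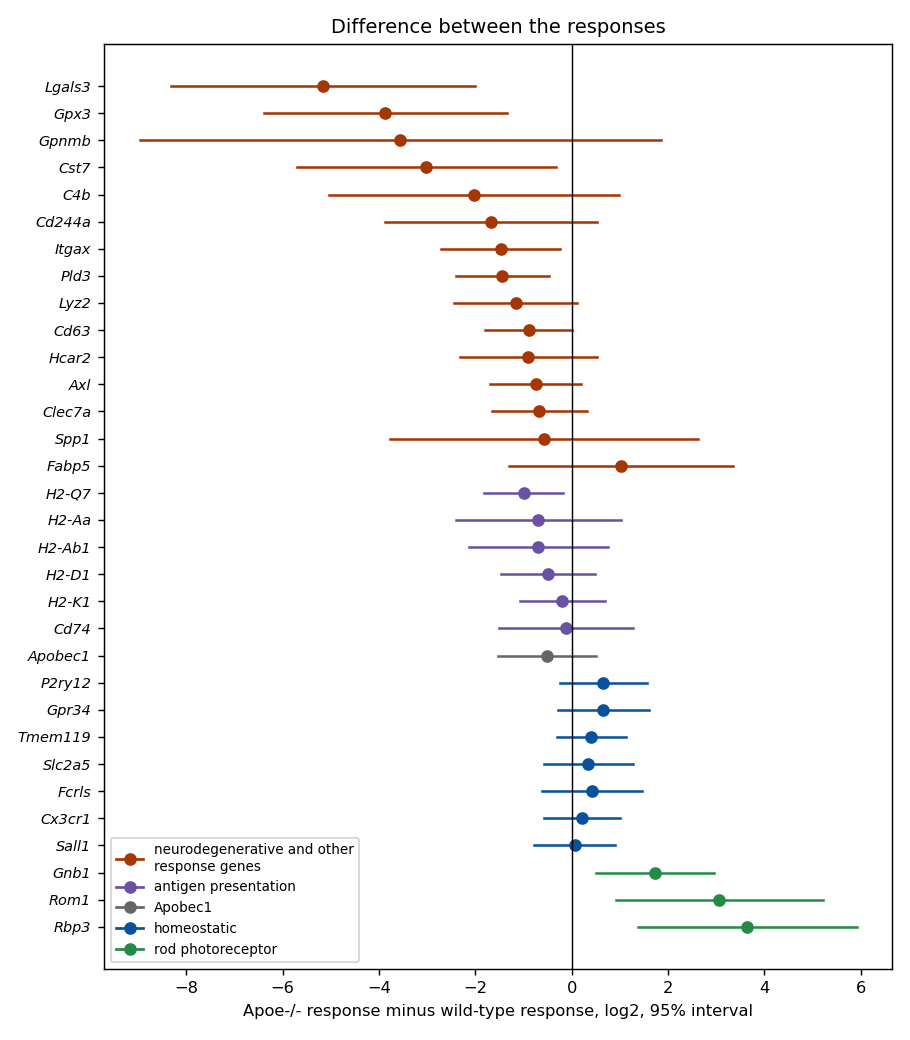
Difference between the responses (Apoe-/- minus wild type, log2, points) with its 95% interval (lines) for genes of the response, of antigen presentation, of the homeostatic state and of the rod list. Intervals of Lgals3, Gpx3, Cst7, Itgax, Pld3 and H2-Q7 lie below 0, intervals of Gnb1, Rom1 and Rbp3 lie above 0, and those of the homeostatic and the other antigen presentation genes shown hold 0.

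Members of the neurodegenerative state mostly had smaller estimates in Apoe-/-. Of the 30 tested genes of the neurodegenerative state 26 were positive in both genotypes (30.0% of all genes were), the median response was 0.99 in wild type and 0.54 in Apoe-/-, and 24 of 30 differences were negative (49.6% of all genes). The difference was called for 0 of the 30 and its interval was below 0 for 3 (1.46% of all genes). List members are read in the same libraries and can vary together, so such counts, for this and the other lists, are descriptions. The lists were also chosen with earlier results of these data known. The mean level of this list was highest in library 2 of both microbead groups. It was 7.9996 (log2 CPM) in wild type, against 7.31 and 7.37, and 7.18 in Apoe-/-, against 6.24 to 6.39. Trem2 itself, the receptor, responded by 0.14 and 0.10, and its adaptor Tyrobp by 0.45 and 0.06. Axl, a receptor for dying cells, had a difference of -0.75 (95% interval -1.69 to 0.19), and Clec7a, the beta-glucan receptor, one of -0.67 (95% interval -1.66 to 0.31).

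Lysosomal genes had mostly positive estimates in both genotypes, with medians of 0.51 and 0.27 over 29 tested genes. Of these, 22 were positive in both (30.0% of all genes tested were). Ctsd, the most abundant cathepsin of the list, responded by 0.88 and 0.25, and Ctsb by 1.38 and 0.72, with differences of -0.63 (95% interval -1.43 to 0.17) and -0.67 (95% interval -1.61 to 0.27). The acid lipase Lipa had a difference of -0.99 (95% interval -1.97 to -0.02), and Atp6v1a, a subunit of the proton pump, one of -1.55 (95% interval -2.65 to -0.44). Wild-type sham libraries held Atp6v1a at 28.9, 12.2, 37.2 and 17.2 CPM, and wild-type microbead libraries at 59.4, 86.0 and 56.0 CPM. Apoe-/- sham libraries held it at 23.8, 17.8, 40.0 and 15.7 CPM and Apoe-/- microbead libraries at 20.7, 27.3, 19.4 and 28 CPM. All 4 Apoe-/- microbead libraries were within the wild-type sham range. The interval of Atp6v1a held 0 without Apoe-/- sham library 3 and with the rod level or the satellite share as a covariate. That of Lipa excluded 0 in 4 of the 15 fits that left out 1 library, and its difference was -0.51 without wild-type microbead library 2.

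Lipid genes were mixed. Over 17 tested genes of lipid uptake, efflux and storage the median difference was -0.037. The difference was negative for 9 (49.6% of all genes tested) and positive for 8. The cholesterol exporters Abca1 and Abcg1 responded by 0.99 and 1.25 in wild type and by 0.59 and 0.61 in Apoe-/-. Soat1, which esterifies cholesterol, had a difference of -0.89 (95% interval -1.75 to -0.03), and Plin2, a coat protein of lipid droplets, one of -1.38 (95% interval -2.81 to 0.05). The interval of Soat1 excluded 0 in 7 of the 15 fits that left out 1 library, and without wild-type microbead library 2 its difference was -0.57.

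Iron and antioxidant genes had 13 negative differences among 14 (49.6% of all genes tested). Their median response was 0.73 in wild type and 0.16 in Apoe-/-. The ferritin light chain Ftl1 is an example with high counts. The level of Ftl1 was 674, 561, 644 and 563 CPM in wild-type sham libraries and 1188, 2650.3 and 1268 CPM in wild-type microbead libraries. It was 533, 826, 654 and 558 CPM in the Apoe-/- sham and 628, 1194, 597 and 1182 CPM in the Apoe-/- microbead libraries. Its wild-type microbead libraries were above all wild-type sham libraries, and 2 of the 4 Apoe-/- microbead libraries overlapped with sham. The difference of Ftl1 was -0.99 (95% interval -1.92 to -0.06), that of the heavy chain Fth1 -0.45 (95% interval -1.32 to 0.42) and that of the peroxiredoxin Prdx1 -0.88 (95% interval -1.73 to -0.03). Ferritin genes have many processed copies, so their counts can be split. All 15 tested genes of glycolysis and hypoxia were positive in both genotypes (30.0% of all genes tested were), with medians of 0.67 and 0.38. The triosephosphate isomerase Tpi1 had a difference of -1.42 (95% interval -2.81 to -0.03). Without wild-type microbead library 2 the differences of Ftl1, Prdx1 and Tpi1 were -0.51, -0.52 and -0.43, and their intervals excluded 0 in 9, 7 and 6 of the 15 fits that left out 1 library.

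Homeostatic genes had small differences, mostly positive. Over 33 tested genes the median response was -0.13 in wild type and 0.045 in Apoe-/-, and 24 of 33 differences were positive (50.4% of all genes). P2ry12, the ADP receptor by which resting microglia sense injury, is an example. For P2ry12, wild-type values were 724, 603, 747 and 733 CPM after sham and 416, 353 and 532 CPM after microbeads. The Apoe-/- values were 469, 404, 722 and 558 CPM after sham and 671, 399, 292 and 739 CPM after microbeads. Its wild-type microbead libraries were below all wild-type sham libraries, as for 275 genes (4.22%; 62 in Apoe-/-, 0.951%, and 6 in both, 0.092%), while the Apoe-/- groups overlapped, 3 of the 4 sham libraries being below the wild-type sham range already. The response was -0.70 and -0.04, with a difference of 0.66 (95% interval -0.24 to 1.55). Siglech, a sialic acid receptor, had a difference of 0.72 (95% interval -0.07 to 1.505), Gpr34, a lysophospholipid receptor, 0.66 (95% interval -0.29 to 1.61), and Tmem119 0.40 (95% interval -0.31 to 1.12). For Cx3cr1, the fractalkine receptor, the difference was 0.21 (95% interval -0.58 to 1.00), for Fcrls, the sorting marker, 0.42 (95% interval -0.62 to 1.46), and for the transcription factor Sall1 0.06 (95% interval -0.79 to 0.91). Slc2a5, a fructose transporter, was lower after microbeads in both genotypes, by point estimates of -0.99 and -0.65, and its difference was 0.35 (95% interval -0.58 to 1.27). None of these passed a test. With limma on log2(TPM + 1), a scale that moved the median difference of all genes to -0.43, those of Tmem119, Cx3cr1, Fcrls, Sall1 and Slc2a5 turned negative.

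Interferon genes had mostly positive differences. Of 16 tested genes of the type I interferon response 14 had a positive difference (50.4% of all genes), with a median response of 0.019 in wild type and 0.57 in Apoe-/-, and 0 intervals excluded 0. Mx1 encodes an antiviral GTPase. In wild type, Mx1 stood at 9.11, 26.2, 49.2 and 19.4 CPM in sham and at 27.5, 29.0 and 22.7 CPM in microbead retinas. Without Apoe, Mx1 stood at 21.4, 0, 6.96 and 13.04 CPM in sham and at 22.8, 24.6, 23.3 and 31.1 CPM in microbead retinas. Its 4 Apoe-/- microbead libraries were above all Apoe-/- sham libraries and within the wild-type sham range, and the wild-type groups overlapped. The difference of Mx1 was 1.20 (95% interval -0.32 to 2.72), that of Ifit3 1.11 (95% interval -0.70 to 2.92) and that of the chemokine Ccl12 1.26 (95% interval -0.43 to 2.95). On the TPM scale the differences of Mx1 and Ifit3 turned to -0.58 and -0.013. Inflammatory cytokine and NF-kB genes had nearly equal medians of 1.08 and 0.94 over 17 genes. Cxcl16, a chemokine and scavenger receptor, had a difference of -0.98 (95% interval -1.97 to 0.01). Immediate early genes, which tissue dissociation can induce, spread widely within groups. All 18 tested were positive in both genotypes (30.0% of all genes tested were), with medians of 0.99 and 1.18. Their mean level ran from 4.36 to 7.23 (log2 CPM) in wild-type sham and from 6.00 to 8.30 in wild-type microbead libraries. It ran from 4.08 to 6.38 in Apoe-/- sham and from 4.01 to 8.45 in Apoe-/- microbead libraries. With that level as a covariate, 10 mean responses were called and the difference for 0 genes.

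**Figure D4:**
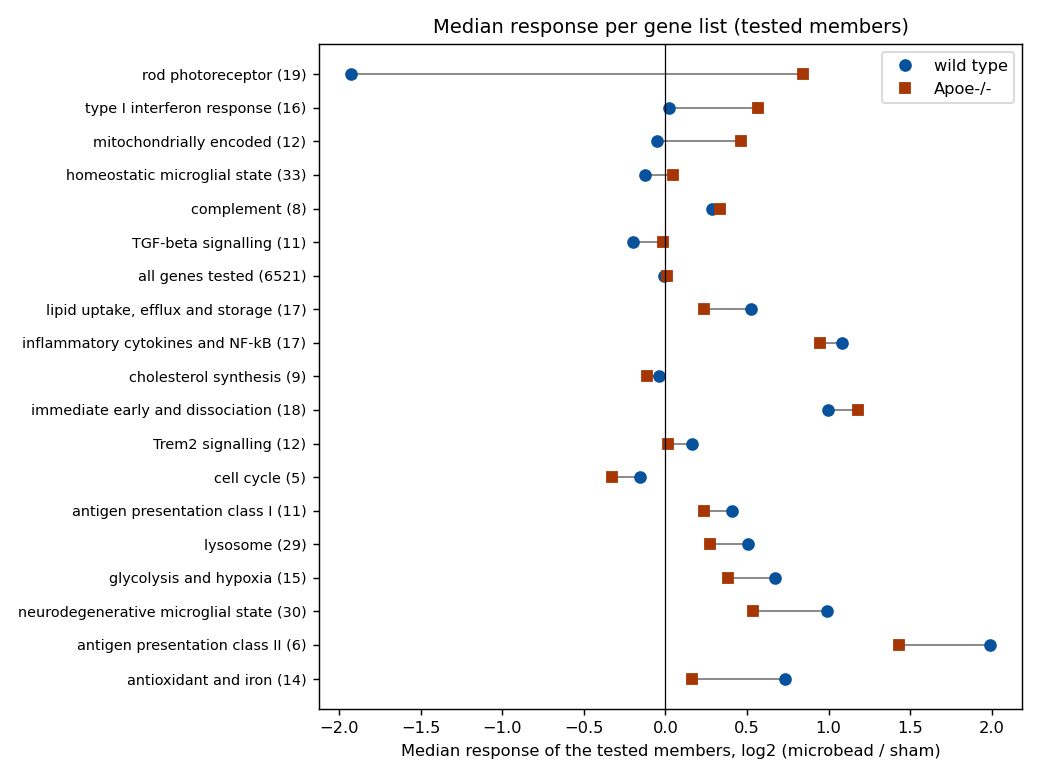
Median response (log2, microbead over sham) of the tested members of each list in wild type (circles) and Apoe-/- (squares), ordered by the median difference; the number tested is in brackets. Antioxidant and iron, class II and neurodegenerative genes lie lowest with the wild-type median to the right, all genes tested lie near 0, and interferon and rod genes have the Apoe-/- median to the right.

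The 10 genes in each direction with the smallest p for the difference, among those with at least 20 CPM, were not all response genes. Those with a negative difference were Lgals3, Mvp, Golgb1, Iqgap1, Psma7, Psmc3, Pld3, Nemf, Fam168b and Atp6v1a. Iqgap1, a scaffold of the actin cytoskeleton, had a difference of -2.58 (95% interval -4.24 to -0.92), and its interval excluded 0 without any 1 library and in all 10 alternatives that gave one. The gene was picked for its small p in these same libraries, so the refits are no independent support. It passed the filter on low counts only through the wild-type microbead group, and the stricter filter dropped it. Iqgap1 measured 4.56, 13.98, 10.8 and 17.2 CPM in wild-type sham and 27.5, 93.0 and 40.0 CPM in wild-type microbead libraries. In Apoe-/- retinas it measured 14.3, 31.1, 6.96 and 13.04 CPM in sham and 22.8, 8.19, 5.83 and 9.33 CPM in microbead libraries. The wild-type microbead libraries were above all others except that Apoe-/- sham library 2 exceeded the lowest of them. The proteasome subunits Psma7 and Psmc3 differed by -1.56 (95% interval -2.58 to -0.53) and -1.34 (95% interval -2.24 to -0.45), in that wild-type estimates were positive (0.71 and 0.40) and Apoe-/- estimates negative (-0.84 and -0.94). The Golgi protein Golgb1 and the vault protein Mvp had the same opposite signs, with differences of -2.06 (95% interval -3.36 to -0.76) and -1.62 (95% interval -2.62 to -0.62). Those with a positive difference included Phgdh, Gm4070, Rbp3, Psd4, Rom1, Gnb1, Smc1a, Acap2 and Agpat3. Phgdh, the first enzyme of serine synthesis, had a difference of 2.15 (95% interval 0.93 to 3.37). Wild-type sham libraries held Phgdh at 38.0, 54.2, 56.4 and 32.3 CPM, and wild-type microbead libraries at 10.1, 12.0 and 18.7 CPM. Apoe-/- sham libraries held it at 26.2, 13.3, 31.3 and 28.7 CPM and Apoe-/- microbead libraries at 22.8, 13.7, 36.9 and 60.7 CPM. The wild-type microbead libraries were below all wild-type sham libraries, and all 4 Apoe-/- sham libraries were also below the wild-type sham range. The interval of Phgdh held 0 on the TPM scale, and that of Psmc3 with the rod level or the satellite share as a covariate. By edgeR's quasi-likelihood test the adjusted p of each of the 20 genes was 0.9997.

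Transcripts of the rod photoreceptor list, most of which the sorted cells should not make, had responses of opposite sign in the genotypes. Of 19 tested rod genes 0 were positive in wild type (49.1% of all genes) and 19 in Apoe-/- (50.8%), with medians of -1.93 and 0.84, and the interval of the difference was above 0 for 14 (1.93% of all genes). Rbp3 encodes a retinoid carrier that photoreceptors secrete. The level of Rbp3 was 33.4, 33.2, 123 and 157 CPM in wild-type sham libraries and 30.4, 30.0 and 4.00 CPM in wild-type microbead libraries. It was 35.7, 26.6, 5.22 and 28.7 CPM in the Apoe-/- sham and 18.6, 10.9, 99.1 and 154 CPM in the Apoe-/- microbead libraries. All wild-type microbead libraries were below all wild-type sham libraries, and the Apoe-/- groups overlapped, microbead libraries 3 and 4 being above all Apoe-/- sham libraries. The difference of Rbp3 was 3.64 (95% interval 1.37 to 5.91), of Rom1 3.06 (95% interval 0.92 to 5.21), of Gnb1 1.73 (95% interval 0.51 to 2.95), of Rcvrn 4.46 (95% interval 1.78 to 7.13), of Nr2e3 4.71 (95% interval 1.80 to 7.63) and of Cngb1 4.13 (95% interval 1.92 to 6.34). Gnb1 stood at 90.7 CPM in wild-type microbead library 3, where Rbp3 was at 4.00 CPM, and the source of its reads was not tested. The rod genes can share a source of RNA, so they are nearer to 1 measurement than to 19. The mean rod level ran from 4.62 to 6.74 (log2 CPM) in wild-type sham, from 3.21 to 4.82 in wild-type microbead, from 3.38 to 5.94 in Apoe-/- sham and from 3.72 to 6.40 in Apoe-/- microbead libraries. With the rod level as a covariate the difference of Lgals3 was -4.17 and that of Gpx3 -4.24, with intervals that excluded 0, while those of Pld3 (-1.04), Cst7 (-2.24) and Rbp3 (0.32) held 0. Summed levels of border-associated macrophage markers were 27.96 to 79.0 CPM in wild-type sham, 31.9 to 108.0 in wild-type microbead, 31.1 to 107.0 in Apoe-/- sham and 43.7 to 132.6 in Apoe-/- microbead libraries.

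**Figure D5:**
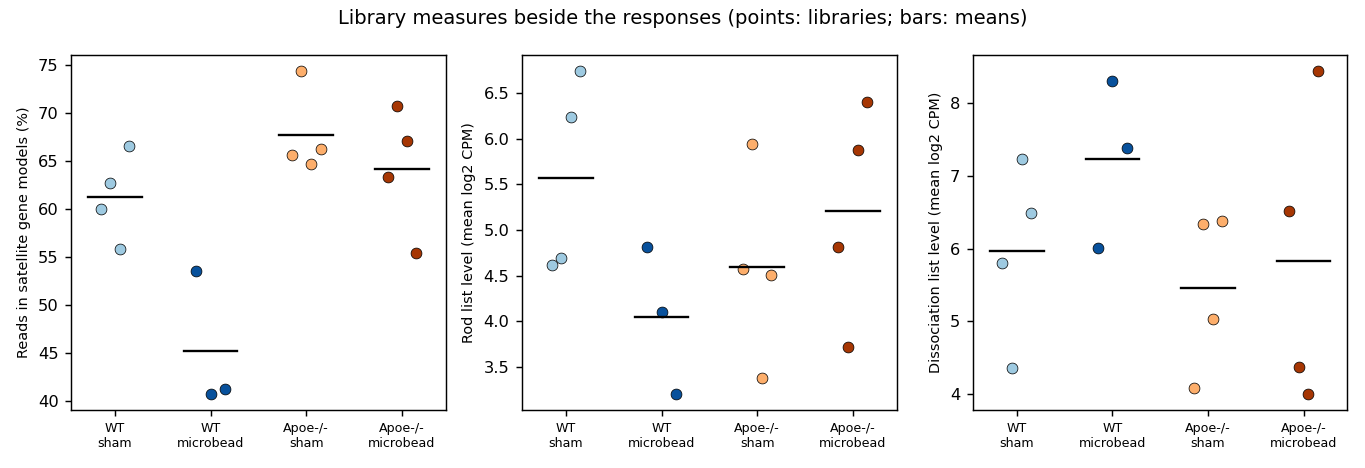
Share of reads in satellite gene models (%), mean level of rod genes and mean level of immediate early and dissociation genes (both log2 CPM) in each library, with bars at group means. The satellite share is lowest in wild-type microbead libraries (40.8 to 53.5%), and the rod level spans more than 2 log2 units in wild-type sham and in both Apoe-/- groups.

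Counts of responding genes changed with single libraries. Leaving out any 1 of the 15 libraries left 0 genes called for the difference. Mean-response calls numbered 0 without wild-type sham library 2, 1 without wild-type sham library 3, wild-type microbead library 2 or Apoe-/- microbead library 2 or 3, 4 without wild-type sham library 1 or Apoe-/- sham library 1, 5 without wild-type microbead library 3 and 7 without wild-type sham library 4. They numbered 41 without wild-type microbead library 1, 29 without Apoe-/- microbead library 1 and 21 without Apoe-/- microbead library 4. Lyz2 kept its call in 14 of these 15 fits, Cd74 and Fabp5 in 10, and H2-Ab1 in 3. Wild-type calls numbered 0 without wild-type microbead library 2, the library in which Lyz2, Gpnmb, Lgals3 and Cd74 were highest, and 29 without wild-type microbead library 1. With the satellite share as a covariate 0 mean responses were called, and with the rod level 5.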

How the data were processed

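RNA of sorted retinal microglia was sequenced in 15 libraries grouped by genotype and injection from the labels. For each library the authors deposited Salmon output by transcript, per the file headers. It holds estimated counts, which the authors left unscaled and which need not be whole, and TPM, which Salmon scales to 1 total per library. Salmon 1.4.0, mm10, DESeq2 1.30.1 and R 4.0.3 are named, without a role, in the submitters' processing notes. The annotation release is not given in the sources used here.

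Estimated counts were summed per gene (GENCODE M21, 116023 of 116945 transcripts assigned, the rest holding 0.217 to 0.354% of reads) and rounded. With 3 reads as the limit, a gene at 0 reads could be at up to 3.0 to 13.3 CPM on the TMM scale used here, for counting error only. In edgeR 4.0.16 (R 4.3.3) 1 quasi-likelihood model of 4 groups was fitted, with TMM sizes and filterByExpr; p-values are two-sided, adjusted by Benjamini-Hochberg over 6521 genes, with a threshold of 0.05. Intervals are at 95%. List levels are mean log2 CPM with a prior count of 2. The script was tested on simulated data. Alternatives were DESeq2 1.42.0, limma 3.58.1 (weighted counts; TPM + 1), other scaling and filters (at least 10 reads in 7 libraries; none), covariates, a replicate block and 15 left-out libraries. The chi-square per degree of freedom between libraries of a group was 2.4 or more, so none was counted as a duplicate.

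The genes named are those with the 10 smallest p for the difference in each direction among protein-coding genes of at least 20 CPM, the called mean responses, a set of state markers, and members of lists. Members and lists were chosen with earlier results of these data known. CCAAT was added to the motifs later, and other genes named from a list were picked after their values were seen. The whole-series TPM table was not used here, and some genes that the rule names are not reported here.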

Additional observations from a re-analysis of the deposited data

Results flagged for a closer look

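In groups of 4 libraries, 186 checks (57 genes and 5 library measures) found 16 values whose gap to the next library took up nearly the whole range of the group. Chance flags about 1 in 20 such groups if values follow a normal distribution, and this rate does not hold for values from few reads. The flag of Gpx3 below rests on 3, 2, 3 and 0 reads in the Apoe-/- microbead libraries. The flags of Gm49339 rest on 2 reads in wild-type sham library 2 and 4 reads in Apoe-/- sham library 4, against 0. Apoe-/- microbead library 2 stood high for Cst7 (98.3 CPM, the others 3.11 to 10.4) and Pld3 (169.4 CPM, the others 68.4 to 79.3). It was also the highest of its group for Lyz2, Gpnmb, Spp1, Fabp5 and Cd63. In Apoe-/- microbead retinas library 4 had Gpx3 at 0 CPM (others 5.46 to 6.21), and library 1 stood low for Golgb1 (12.4 CPM, others 18.7 to 19.4) and Psma7 (29.0 CPM, others 38.2 to 38.9).

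Among wild-type sham libraries, library 4 was high for Gpnmb (23.7 CPM, others 0 to 1.75), library 2 low for P2ry12 (602.8 CPM, others 724.4 to 747.0) and high for Gm49339 (3.49 CPM, others 0), library 1 high for Gpr34 (446.5 CPM, others 308.1 to 326.9) and Lipa (80.5 CPM, others 49.2 to 53.8), and library 3 high for Fth1 (947.2 CPM, others 625.5 to 648.5). Among Apoe-/- sham libraries, library 2 was high for Cd244a (17.8 CPM, others 7.14 to 8.7), low for Fth1 (532.8 CPM, others 586.2 to 594.8) and highest for the satellite share (74.4%, others 64.7 to 66.2%). Library 4 of that group was high for Cxcl16 (57.4 CPM, others 23.8 to 27.8) and Gm49339 (10.4 CPM, others 0).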

How the results depend on the processing

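The difference called 0 genes in 15 of 15 fits that left out 1 library and 0 with DESeq2, weighted limma, other size factors, the stricter filter, the dissociation level and the replicate block. It called 5 with limma on log2(TPM + 1), a scale that moved the median difference of all genes to -0.43 and the median wild-type response to 0.59, 45 with no filter (adjusted p in edgeR 0.00107 for Lgals3, 3.4e-07 for Rbp3, 1.9e-05 for Rcvrn, 5.4e-05 for Rom1, 0.000338 for Cngb1 and 0.0012 for Nr2e3), and 1 each with the rod level (Gm48113) and the satellite share (Rpl15-ps3). Mean-response calls were 2 with the stricter filter, 116 with DESeq2 (7 shared, 45 higher), 113 with TPM (111 higher), 155 with no filter (110 higher), 0 with the block, 5 with the rod level and 0 with the satellite share, and 0 to 41 with 1 library left out. For the mean response DESeq2 gave no adjusted p to 5689 of the 6521 genes, 6 of the 13 called genes among them. Its mean-response counts thus cover only the remaining genes and are not like for like with the 13. Calls of any response (14) were 2, 39, 45, 171, 2, 1 and 1 in these settings, 8 with the dissociation level and 0 to 24 with 1 library left out. Wild-type calls (13) were 5, 36, 84, 124, 7, 3 and 5, and 0 to 29 with 1 left out. Apoe-/- calls were 37 with no filter and 0 otherwise. Called genes whose difference interval held 0 (12) numbered 2, 111, 75, 112, 0, 4 and 0, 7 with weighted limma or the dissociation level, and 0 to 25 with 1 left out. With a margin of 1.5 in place of 1, 2 of the 13 had an interval inside it. How many genes kept their sign across genotypes was read in the main fit only, and not in the settings above. Chosen in wild type, 44 of 50, 168 of 200 and, with at least 20 CPM, 86 of 100 genes kept it, against 87 of 100. Chosen in Apoe-/-, 41 of 50, 159 of 200 and, with at least 20 CPM, 85 of 100 genes kept it, against 78 of 100.

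Within a genotype, same-numbered sham and microbead libraries correlated by -0.16 to 0.029 over 7 pairs, 0 of them over 0.1. Differently numbered ones correlated by -0.29 to 0.27 over 21 pairs, 6 of them over 0.1. Across genotypes, same-numbered libraries correlated by -0.17 to 0.22 and differently numbered ones by -0.32 to 0.31. Replicate numbers thus showed no pairing within a genotype, though groups this small cannot exclude one. The block is reported only here, as the counts above.

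Some differences changed sign. With TPM these were Cx3cr1 (-0.31), Fcrls (-0.25), Sall1 (-0.35), Slc2a5 (-0.21), Tmem119 (-0.067), Mx1 (-0.58), Ifit3 (-0.013) and Fabp5 (-2.66). Fabp5 was -0.25 with DESeq2 and -1.39 with weighted limma. Cd74 became 0.15 with weighted limma, 0.040 with the dissociation level, 0.077 with the rod level and 0.75 with the satellite share. With the satellite share H2-Aa became 0.17, H2-Ab1 0.47, H2-K1 0.37 and Sall1 -0.36; with the rod level H2-D1 became 0.095 and H2-K1 0.21; with the dissociation level Sall1 became -0.0700. With 1 library left out Cd74 ran from -0.50 to 0.53, H2-Aa from -1.17 to 0.50, H2-K1 from -0.40 to 0.092, Cx3cr1 from -0.0051 to 0.40 and Sall1 from -0.15 to 0.50. The causes were not tested.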

Other observations

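Separation of all libraries in both genotypes was rare. In 16 genes (0.245%) every microbead library was above every sham library in wild type and in Apoe-/-, and in 6 genes (0.092%) every one was below; these genes were picked after their values were seen. Besides Cd74, Lyz2, Fabp5 and Fth1, the higher set holds Slc2a6, a sugar transporter of phagocyte lysosomes, with responses of 2.27 and 1.80, the interferon-inducible Ifi207 (1.31 and 1.98), the phospholipid flippase Atp8a1 (0.74 and 1.12), the copper pump Atp7a (0.81 and 1.00) and Tmem39a (0.54 and 2.08). The lower set holds the integrin Itgav (-1.03 and -0.79), the purine enzyme Pnp (-0.63 and -0.40), Cops8 (-0.84 and -0.76) and Lrba (-1.05 and -0.64). None of these except Cd74, Lyz2 and Fabp5 was called by edgeR's test of the mean response. In Apoe-/- the place of Fabp5 rests on 2, 8, 4 and 2 reads after microbeads against 0 after sham.

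Complement genes had median responses of 0.29 and 0.34 over 8 tested genes, and the abundant C1qa and C1qb had 0.24 and 0.32 and 0.26 and 0.24. TGF-beta signalling genes had medians of -0.20 and -0.013 over 11 tested genes, and cholesterol synthesis genes of -0.041 and -0.11 over 9. The heat shock gene Hspa1a had a difference of 4.71, and its Apoe-/- microbead libraries held 16.6, 10.9, 0 and 239.6 CPM.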
